A study of Mus musculus with 12 samples.

Results

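The genes of cholesterol and fatty acid synthesis were examined in mpkCCD cells, which come from the cortical collecting duct of the mouse and are used as a principal cell model. The 31 members are the rows of the deposited expression table that carry the symbol of an enzyme, regulator or carrier of these pathways, chosen by name, and 52015 genes of the table were used in all. They comprise 18 sterol enzymes, 7 enzymes that make or modify fatty acids and 6 genes of sterol sensing and transport, and each of the 31 was above the minimum of 0.5 FPKM (fragments per kilobase of exon, scaled by library depth) used for comparisons.

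Scr_300 and Scr_600 were control cells that had received CRISPR/Cas9 with a scramble guide RNA, 2 libraries each. Nfat5-KO_300 and Nfat5-KO_600 were cells in which the same method had been aimed at Nfat5, the transcription factor of the tonicity response, 4 libraries each from 2 clones. All cells were kept for 5 days at 300 mosmol/kg, or at 600 mosmol/kg reached with 100 mM NaCl and 100 mM urea. The deposited table gives 1 FPKM value per group and no value per library. Differences between groups therefore have no replicate check, no p-value was computed, and differences between the 2 clones cannot be told apart from loss of NFAT5.

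Nfat5 itself was listed at 5.61 FPKM in Scr_300, 7.93 in Scr_600, 3.47 in Nfat5-KO_300 and 6.88 in Nfat5-KO_600, so its mRNA was still present in the knockout groups. These values do not check the edit, which need not remove the mRNA. All 7 epithelial marker genes examined were expressed, with a summed level of 1090 to 1780 FPKM. Of 10 principal cell markers 5 reached the minimum, while Aqp2, the water channel that defines the cell type, stayed between 0 and 0.245 FPKM. The summed principal cell markers were 9.83 FPKM in Scr_300, 9.4 in Scr_600, 20.5 in Nfat5-KO_300 and 46.5 in Nfat5-KO_600, with Gata3 giving 3.41 to 30 FPKM of the sum. The sum was thus higher in the knockout and, within it, higher at 600 mosmol/kg, through Gata3, Hsd11b2 and Scnn1a, while Kcnj1 was at 0.725 FPKM in Scr_600 and 0.074 in Nfat5-KO_600. These levels run with the groups, and their part in the results below was not tested. Markers of hepatocytes and adipocytes, cells with much lipid synthesis, were near 0, with 5 of 5 under 0.1 FPKM and a summed level of 0.0268 to 0.0787 FPKM. The remaining lists were also low in sum, at 0.061 to 0.536 FPKM for intercalated cells with Atp6v0d2 and Foxi1 listed at 0, 0.0518 to 1.24 for proximal tubule, 0.0329 to 0.24 for fibroblasts, 0.0377 to 0.193 for endothelium and 1.43 to 2.62 for leukocytes, where Cd68 gave most of it.

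Cells build cholesterol from acetyl-CoA through mevalonate, farnesyl diphosphate, squalene and lanosterol, and build fatty acids from the same precursor through malonyl-CoA. Both routes are controlled by SREBP transcription factors, which are held in the endoplasmic reticulum by SCAP and the INSIG proteins when sterols are plentiful and move to the nucleus when sterols are scarce. SREBP-2, the product of Srebf2, acts mainly on sterol genes and SREBP-1c, from Srebf1, mainly on fatty acid genes. The collecting duct runs from the isotonic cortex into the hypertonic medulla, where its cells hold their volume with organic osmolytes whose transport and synthesis NFAT5 induces.

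SREBPs bind sterol regulatory elements, usually beside a CCAAT box bound by NF-Y, so promoter windows were searched for these letters on both strands. The windows ran from 250 bases before to 50 bases after the RefSeq start (GRCm38.p6), and 25 of the 31 members had an entry, 15 of them sterol enzymes. CCAAT was found in 21 of the 25 (84.0%), against 37.4% of all 32851 promoter entries and 43.3% of the 9042 expressed genes with an entry. Among sterol enzymes 14 of 15 held it. Members and expressed genes were counted once per gene, over any of its entries, while shares of all promoters count each entry. The element TCACNCCA was found in 3 members, Hmgcs1, Msmo1 and Srebf2, that is 12.0% of those matched against 4.36% of all entries and 4.56% of expressed genes. Its longer form TCACNCCAC, which contains the shorter one, was in Hmgcs1 alone (4.0% against 1.24% and 1.4%). The palindrome CACGTG, an E-box, was in 5 members (20%) against 7.15% and 11.9%, and TGGAAA, the core of the tonicity element bound by NFAT5, was in 7 (28.0%) against 21.4% and 19.0%. These are matches of letters and not shown binding sites.

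The windows below are shown because they hold the sterol element or, for Hsd17b7, an E-box between CCAAT boxes in the enzyme gene with the lowest ratio of Nfat5-KO_600 to Scr_600. They were picked after the values had been seen. Capitals mark the sterol element, the CCAAT boxes (which read ATTGG where they lie on the other strand) and the E-box, and each run is written 5′ to 3′ on the strand of the gene. That of Hmgcs1 covers the 200 bases before the start (chr13:119690151-119690350, plus strand). Those of Srebf2 (chr15:82147069-82147180, plus) and Hsd17b7 (chr1:169969242-169969405, minus) stop at the first annotated exon, and that of Msmo1 gives 30 bases around its element (chr8:64733737-64733766, minus). The Msmo1 run ends inside a CCAAT box that begins 160 bases before the start, so that box is not marked. Further CCAAT boxes of Msmo1 begin 96 and 55 bases before the start, outside the run.
Hmgcs1: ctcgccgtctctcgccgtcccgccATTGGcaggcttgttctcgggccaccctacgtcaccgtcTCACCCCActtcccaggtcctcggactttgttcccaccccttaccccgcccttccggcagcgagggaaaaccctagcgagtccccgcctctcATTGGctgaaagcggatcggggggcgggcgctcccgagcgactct
Srebf2: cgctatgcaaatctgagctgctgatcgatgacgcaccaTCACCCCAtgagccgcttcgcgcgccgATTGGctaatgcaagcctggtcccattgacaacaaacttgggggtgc
Hsd17b7: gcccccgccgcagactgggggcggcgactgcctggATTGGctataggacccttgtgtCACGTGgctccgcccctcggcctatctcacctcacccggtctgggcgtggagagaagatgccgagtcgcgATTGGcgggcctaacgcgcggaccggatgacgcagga
Msmo1: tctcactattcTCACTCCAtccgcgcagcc
The sterol element began 137 bases before the start in Hmgcs1, 162 in Srebf2 and 177 in Msmo1, and the E-box of Hsd17b7 began 143 bases before it.

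The pathway was well expressed in all groups. Summed over the 18 sterol enzymes, the level was 436 FPKM in Scr_300, 475 in Scr_600, 403 in Nfat5-KO_300 and 303 in Nfat5-KO_600. In bulk RNA, less RNA per cell and fewer cells with the pathway active cannot be told apart. The control sum was higher at 600 than at 300 mosmol/kg and the knockout sum lower. Nfat5-KO_600 held the lowest of the 4 values for 15 of the 18 enzymes, and Scr_600 held the highest for 14. The shares of all genes lowest or highest in these groups were not computed, so these counts have no background beside them. The 7 fatty acid enzymes summed to 440 FPKM in Scr_300, 378 in Scr_600, 383 in Nfat5-KO_300 and 320 in Nfat5-KO_600, a sum carried by Scd2. All FPKM of a group added up to 253756 in Scr_300, 231932 in Scr_600, 251080 in Nfat5-KO_300 and 212247 in Nfat5-KO_600, and values were compared as deposited unless rescaling is named.

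**Figure D1:**
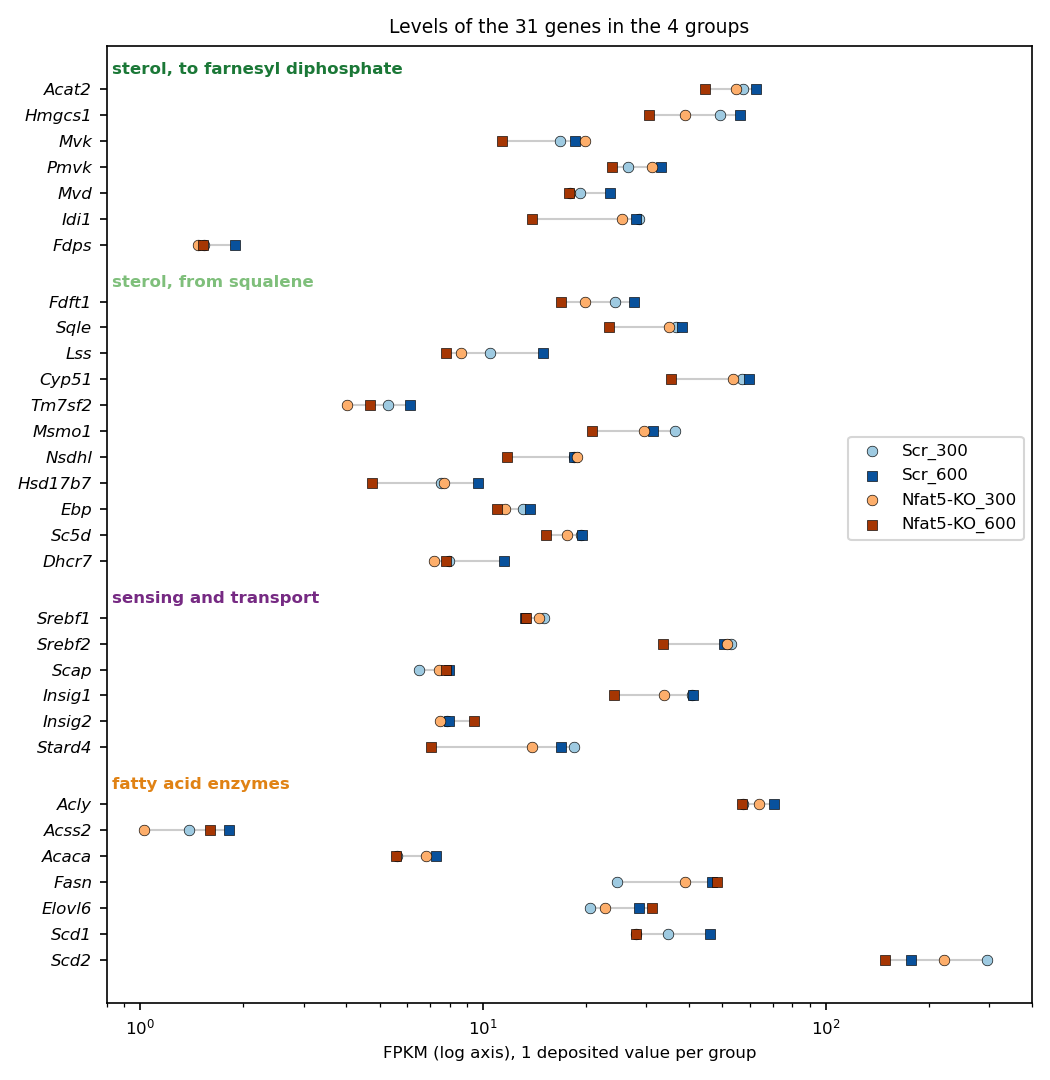
FPKM of the 31 genes (log axis) with 1 point per group, ordered by branch along the pathway. Circles are 300 and squares 600 mosmol/kg, blue is Scr and orange Nfat5-KO. Dark orange squares stand furthest left for 15 of the 18 sterol enzymes, a count for which the share of all genes was not computed.

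The steps to farnesyl diphosphate open the sterol branch. Hmgcs1, the synthase that makes HMG-CoA, was at 49.2 and 56.4 FPKM in Scr_300 and Scr_600 and at 38.8 and 30.6 in Nfat5-KO_300 and Nfat5-KO_600. Both knockout values were below both control values, and the gap was wider at 600 mosmol/kg. Mvk, mevalonate kinase, was at 16.8 and 18.6 FPKM in the control groups and at 19.9 and 11.4 in the knockout groups, so the knockout was the highest group at 300 and the lowest at 600. Idi1, the isomerase of isopentenyl diphosphate, was at 28.6 and 28.0 FPKM in Scr and at 25.4 and 13.9 in Nfat5-KO. Here 3 groups lay close together and Nfat5-KO_600 stood alone. Acat2, the cytosolic thiolase of the first step, ran from 44.4 FPKM in Nfat5-KO_600 to 62.6 in Scr_600, Pmvk, phosphomevalonate kinase, from 23.8 to 33.2 and Mvd, the decarboxylase that follows, from 17.8 to 23.5, each with the same groups at the ends.

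Fdps, farnesyl diphosphate synthase, was listed at 1.54 and 1.89 FPKM in Scr_300 and Scr_600 and at 1.48 and 1.53 in the knockout groups, far below its neighbours in the pathway. A processed pseudogene, Gm3571, matched its transcript at 98.9% identity over 76.8% of the length and was listed at 15.6 and 16.5 FPKM in Scr and 14.0 and 11.1 in Nfat5-KO, above Fdps itself in every group. Reads of such copies can be split between genes by the counting, so the level of Fdps is uncertain. In all, 9 members had a match of at least 90% identity over 150 bases or more, the others being Acat2, Idi1, Fdft1, Insig1, Acaca, Elovl6, Scd1 and Scd2. Summed with the copies of Fdps in the table, the level was 19.6 and 21.1 FPKM in Scr and 18.3 and 14.6 in Nfat5-KO. Nfat5-KO_600 against Scr_600 then gave a log2 ratio of -0.53, against -0.29 for Fdps alone. Exons of Fdps also overlap those of Gm43738 on the same strand (26.7% of the exon bases of Fdps). Gm43738 was listed at 0 to 0.00292 FPKM, and the part of this overlap in the low level of Fdps was not tested.

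From squalene onward the pattern was alike. Fdft1, squalene synthase, was at 24.3 and 27.6 FPKM in Scr_300 and Scr_600 and at 19.8 and 16.9 in Nfat5-KO_300 and Nfat5-KO_600. Sqle, squalene epoxidase, was at 36.6 and 38.2 FPKM in Scr and at 34.9 and 23.4 in Nfat5-KO. Lss, which closes the ring to lanosterol, was at 10.5 and 15.0 FPKM in Scr and at 8.62 and 7.83 in Nfat5-KO. In each of these, Scr_600 was the highest group and Nfat5-KO_600 the lowest. Cyp51, lanosterol demethylase, was at 56.9 and 59.8 FPKM in Scr and at 53.8 and 35.5 in Nfat5-KO. Hsd17b7, a reductase of sterol ketones, was at 7.57 and 9.67 FPKM in Scr and at 7.68 and 4.75 in Nfat5-KO. Nsdhl, the dehydrogenase of the same demethylation complex, was at 18.4 and 18.4 FPKM in Scr and at 18.8 and 11.8 in Nfat5-KO. For these 3 enzymes the groups at 300 mosmol/kg differed little and Nfat5-KO_600 was apart. Msmo1, the methyl sterol oxidase, was highest in Scr_300 at 36.4 FPKM, with 31.3 in Scr_600, 29.6 in Nfat5-KO_300 and 20.8 in Nfat5-KO_600. The isomerase gene Ebp stayed between 11.0 and 13.7 FPKM and the desaturase gene Sc5d between 15.3 and 19.5. Dhcr7, a reductase at the end of the route, was at 7.98 and 11.5 FPKM in Scr and 7.22 and 7.80 in Nfat5-KO, and the sterol reductase gene Tm7sf2 at 5.28 and 6.12 in Scr and 4.02 and 4.68 in Nfat5-KO. Dhcr7 and Tm7sf2 were lowest in Nfat5-KO_300, unlike Ebp and Sc5d, which were lowest in Nfat5-KO_600. Exons of Fdft1 overlap those of Ctsb on the other strand (18.3% of the exon bases of Fdft1), and those of Tm7sf2 overlap Vps51 on the same strand (12.1%). Ctsb was at 44.4 and 30.8 FPKM in Scr and 49.3 and 35.5 in Nfat5-KO, and Vps51 at 12.7 and 15.4 in Scr and 10.8 and 11.8 in Nfat5-KO. Whether reads were counted by strand is not stated in the sources used here, so Fdft1 is uncertain to that extent. Tm7sf2 is uncertain under either setting, since Vps51 lies on the same strand.

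Among the sensing and transport genes, Srebf2 was at 52.8 and 50.5 FPKM in Scr_300 and Scr_600 and at 51.5 and 33.5 in Nfat5-KO_300 and Nfat5-KO_600. Insig1, which retains SCAP and is itself a classical SREBP target, was at 40.8 and 41.1 FPKM in Scr and at 33.8 and 24.2 in Nfat5-KO. Stard4, a cytosolic sterol carrier, was at 18.5 and 16.9 FPKM in Scr and at 13.9 and 7.05 in Nfat5-KO. All 3 were lowest in Nfat5-KO_600. Srebf1 stayed between 13.3 and 15.1 FPKM and Scap between 6.50 and 7.96, with the groups close together. Insig2, the second retention protein, was highest in Nfat5-KO_600 at 9.41 FPKM and at 7.50 to 7.99 in the other groups.

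The fatty acid enzymes did not share 1 order of groups. Fasn, fatty acid synthase, was at 24.7 and 46.6 FPKM in Scr_300 and Scr_600 and at 39.0 and 48.2 in Nfat5-KO_300 and Nfat5-KO_600. Scr_300 was apart and low, and the groups at 600 mosmol/kg were close. Scd1, a desaturase of saturated acyl chains, was at 34.8 and 45.9 FPKM in Scr and at 27.9 and 27.9 in Nfat5-KO. Its paralogue Scd2, which lies 87.6 kb away on chromosome 19, was at 296 and 177 FPKM in Scr and at 222 and 149 in Nfat5-KO, lower at 600 mosmol/kg in both genotypes. Elovl6, the elongase of palmitate, was at 20.5 and 28.6 FPKM in Scr and 22.7 and 31.1 in Nfat5-KO, higher at 600 in both. Acly, which makes cytosolic acetyl-CoA from citrate, was highest in Scr_600 at 70.5 FPKM and at 56.9 to 63.8 in the others. Acaca, the carboxylase that makes malonyl-CoA, was at 5.60 and 7.29 FPKM in Scr and 6.83 and 5.59 in Nfat5-KO, and its pseudogene Gm5182, 99.2% identical over 64.3% of the transcript, at 2.72 and 3.25 in Scr and 3.33 and 2.86 in Nfat5-KO. Acss2, which makes acetyl-CoA from acetate, was low at 1.03 to 1.82 FPKM. Of its exon bases 9.12% are shared with genes on the other strand, among them Ggt7 and Gss. Ggt7 was at 0.349 and 1.36 FPKM in Scr and 0.294 and 1.33 in Nfat5-KO, and Gss at 7.32 and 6.33 in Scr and 7.16 and 4.99 in Nfat5-KO. Acss2 is thus uncertain to the same extent as Fdft1, since the strand setting is not stated.

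The first comparison asked how control cells responded to 600 mosmol/kg. Ratios are given as log2 of FPKM plus a pseudocount of 0.1, which understates changes of low genes. In Scr_600 against Scr_300, 15 of 18 sterol enzymes were higher and 3 lower, where 45.4% of all 12929 genes compared were higher. The sterol median log2 ratio was 0.17, where the median of all genes was -0.04. No sterol enzyme differed by 1.5-fold as deposited, and the highest ratios were those of Dhcr7 (0.52) and Lss (0.51). Rescaled to TPM, which sets the sums of the groups equal, these were 0.66 and 0.64, past the line, and the sterol median was 0.30 beside 0.09 for all genes. Of the fatty acid enzymes 6 of 7 were higher, with a median of 0.38. Fasn was 1.88-fold higher (0.91) and Scd2 lower by log2 -0.74. These were the 1 member at least 1.5-fold higher and the 1 at least 1.5-fold lower among 31, where 10.4% and 9.01% of all genes compared were, and in TPM 4 were higher and 1 lower. The 1.5-fold line is a fixed size and not a test.

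In Nfat5-KO cells most sterol enzymes were lower at 600 than at 300 mosmol/kg, by a narrower count in TPM. Against Nfat5-KO_300, 15 of the 18 had lower values in Nfat5-KO_600 and 3 had higher ones, where 52.9% of all 12982 genes had lower ones. The sterol median was -0.32 beside -0.04 for all genes. Rescaling each group to TPM moved the median of all genes to 0.20 and gave 10 lower and 8 higher, with a median of -0.08. The distance of the sterol median from that of all genes was -0.28 as deposited, in TPM and with median-of-ratios scaling. Each rescaling multiplies all values of a group by 1 factor, so this distance could hardly change and is no check. The members at least 1.5-fold lower were Mvk (-0.80), Idi1 (-0.86), Cyp51 (-0.60), Nsdhl (-0.66), Hsd17b7 (-0.68), Srebf2 (-0.62) and Stard4 (-0.97), 7 of 31, where 13.8% of all genes were, and 2 members were in TPM. Acss2, at 1.03 and 1.60 FPKM, was at least 1.5-fold higher (0.59), where 14.1% of genes were, but not with a pseudocount of 1 (0.36) or median-of-ratios scaling (0.56). The fatty acid enzymes had 3 higher and 4 lower, Scd1 by less than 0.01 on the log2 scale, and 5 higher and 2 lower in TPM, where their median was 0.24. Elovl6 was at 0.45 and Scd2 at -0.58 as deposited.

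**Figure D2:**
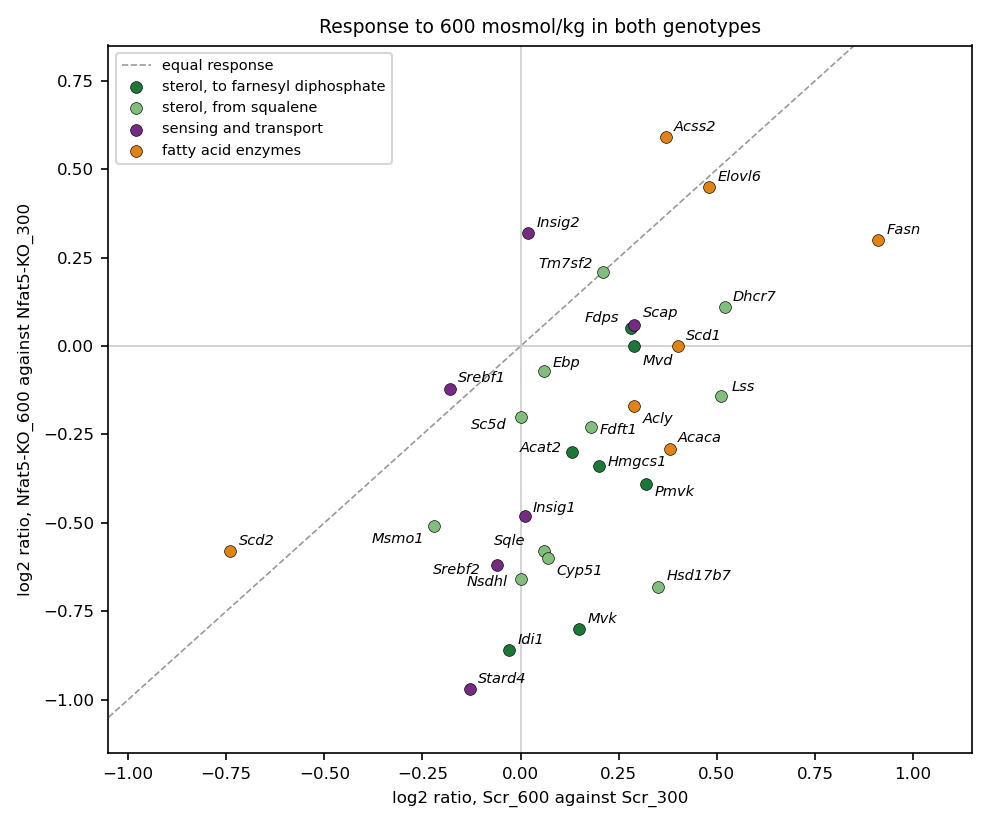
Log2 ratio of 600 to 300 mosmol/kg in Scr (horizontal) and in Nfat5-KO (vertical), 1 point per gene, coloured by branch, with the dashed line where both are equal. Sterol enzymes lie below the line for 17 of 18, with Hsd17b7, Mvk and Idi1 far from it, while Elovl6 and Tm7sf2 lie on or near it.

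The response in Nfat5-KO minus that in Scr was negative for 17 of 18 sterol enzymes, where it was for 52% of all 13414 genes. The sterol median was -0.48, where all genes had -0.01. This difference was lowest for Hsd17b7 (-1.03), Mvk (-0.94), Idi1 (-0.83) and Pmvk (-0.71), and for Tm7sf2 it was 0. Among fatty acid enzymes Acaca (-0.66) and Fasn (-0.61) had the lowest values, 5 of 7 were negative and the median was -0.40. Stard4 had -0.84 and Insig1 -0.49, while Insig2 had 0.30. In all, 11 of 31 members differed by at least 1.5-fold in this direction, where 8.75% of all genes did, and 5 members did in TPM (Hsd17b7, Mvk, Idi1, Pmvk and Stard4). No member did in the other direction, where 9.48% of genes did.

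The second question was how the Nfat5-KO groups differed from the Scr groups at each osmolality. At 300 mosmol/kg the sterol enzymes differed little between the genotypes. In Nfat5-KO_300 against Scr_300, 14 of 18 were lower and 4 higher, where 50.2% of all genes were lower. The sterol median was -0.12, with a range from -0.38 (Tm7sf2) to 0.25 (Mvk). Fasn was the 1 member past 1.5-fold, at 1.58-fold higher (0.66), where 5.27% of the 12704 genes compared were, and 0 members were 1.5-fold lower, where 6.21% were. Stard4 (-0.42), Scd2 (-0.41) and Acss2 (-0.40) had the lowest ratios among the 31.

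At 600 mosmol/kg all 18 sterol enzymes had lower values in the knockout than in the control, also after either rescaling. Their median was -0.61, with a range from -1.01 to -0.29. Of all 13063 genes compared 52.2% were lower as deposited, and the median was -0.02. TPM moved that of all genes to 0.11 and that of the sterol enzymes to -0.48. Hsd17b7 was 2.02-fold lower, Idi1 2.00-fold, Lss 1.91-fold, Hmgcs1 1.84-fold, Cyp51 1.68-fold, Fdft1 1.63-fold, Sqle 1.63-fold, Mvk 1.62-fold and Nsdhl 1.55-fold. With Stard4 (2.39-fold lower), Insig1 (1.70-fold), Srebf2 (log2 -0.59) and Scd1 (1.64-fold), 13 of 31 members were at least 1.5-fold lower, where 9.44% of genes were, and 8 members were in TPM. Msmo1 at -0.58 lay just short of the line and Srebf2 just past it. Idi1, Hsd17b7 and Stard4 were at least 2-fold lower, 3 of 31, where 3.68% of genes were. With a pseudocount of 1, or in TPM, Stard4 was past 2-fold and Idi1 (-0.96 and -0.88) and Hsd17b7 (-0.89 and -0.90) were not. No member was 1.5-fold higher, where 9.84% of genes were.

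Not every gene tied to SREBP moved this way at 600 mosmol/kg. Srebf1 (0.01, or -0.04 after median-of-ratios scaling) and Scap (-0.03, or 0.10 in TPM) were near 0, Insig2 was at 0.23, Fasn at 0.05 and Elovl6 at 0.12. The fatty acid enzymes had a median of -0.25, with 5 of 7 lower, and ran from Scd1 at -0.72 to Elovl6. Fasn was therefore the member with the highest ratio at 300 mosmol/kg and lay near 0 at 600, while Hsd17b7, at 0.02 at 300, had the lowest ratio of the enzymes at 600.

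**Figure D3:**
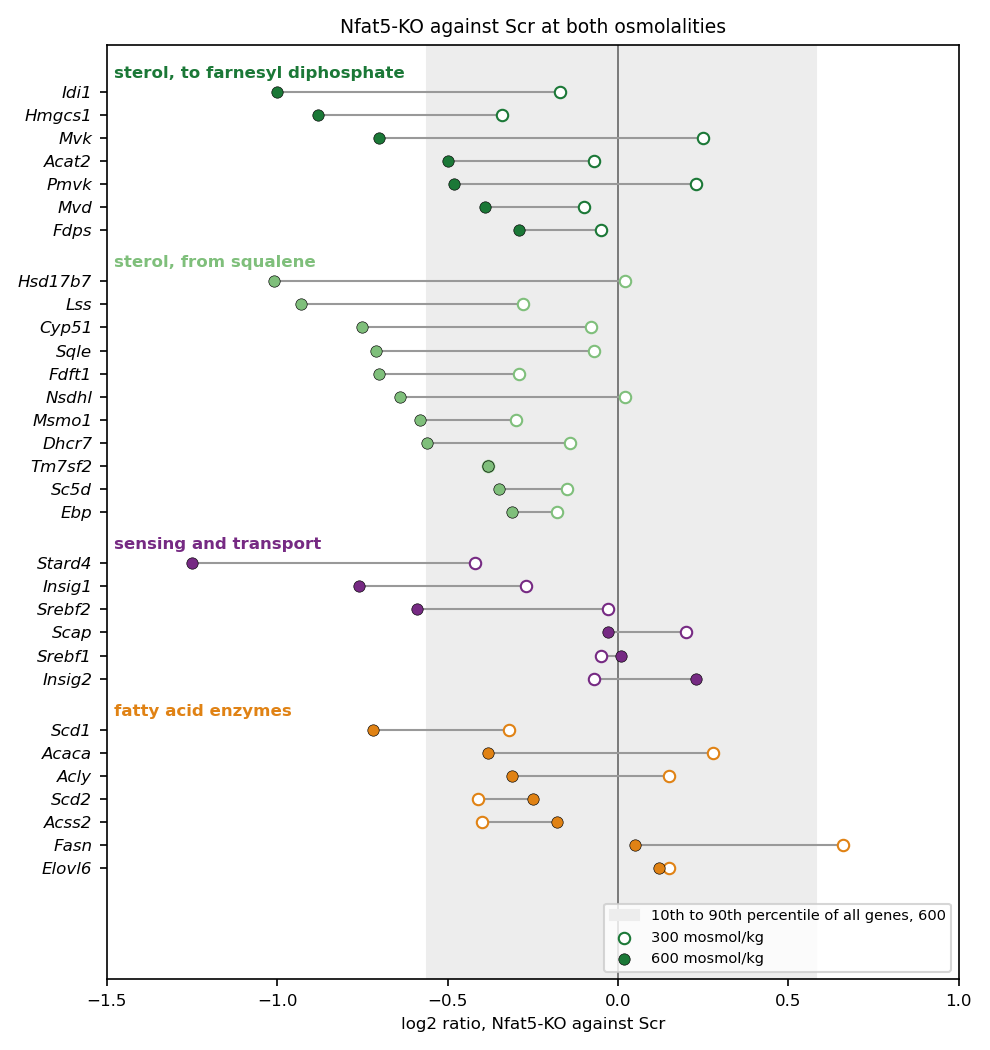
Log2 ratio of Nfat5-KO to Scr for each gene at 300 (open) and 600 mosmol/kg (filled), joined by a line and grouped by branch. The grey band runs from -0.56 to 0.58, the 10th to 90th percentile of all genes at 600. All 18 sterol enzymes are left of 0 at 600, and 10 of them, with Stard4, Insig1, Srebf2 and Scd1, left of the band.

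The sterol enzymes are spread over 13 chromosomes. The median ratio of all genes within 10 Mb of each ranged from -0.23 to 0.29 in Nfat5-KO_600 against Scr_600, and 18 of 18 enzymes lay below the median of their neighbours, by a median of -0.60. In Nfat5-KO_600 against Nfat5-KO_300 14 of 18 did, and in Scr_600 against Scr_300 2 of 18.

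Genes around the pathway were read from lists of their own. Of 10 genes of SREBP processing and enzyme turnover 8 had a ratio of Nfat5-KO_600 to Scr_600 below 0 on the log2 scale, where 52.2% of all genes did. The median of the list was -0.17, and 0 of its genes were past 1.5-fold. Among all genes 9.44% were at least 1.5-fold lower and 9.84% at least 1.5-fold higher. Mbtps1 and Mbtps2, the proteases that release SREBPs, were at -0.30 and -0.16. The pair with the largest tonicity ratios in that list was Pgrmc1, a haem-binding partner of sterol enzymes, at -0.63 in Scr and -0.77 in Nfat5-KO, and Hsp90b1, a chaperone of the endoplasmic reticulum, at -0.41 and -0.57. Both were lower at 600 mosmol/kg in both genotypes. The other isoprenoid branches use farnesyl diphosphate for ubiquinone, dolichol and protein prenylation. Their 10 genes had a median of -0.11 in Nfat5-KO_600 against Scr_600, with 0 past 1.5-fold, beside the same shares of all genes. Fntb, a subunit of farnesyltransferase, was at -0.38 in Scr and -0.99 in Nfat5-KO in response to 600 mosmol/kg, and Pdss1, of ubiquinone synthesis, at -0.38 and -0.89.

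Of 11 genes of cholesterol export, storage and LXR response, 8 could be compared, with a median of -0.11 in Nfat5-KO_600 against Scr_600. Abca1 and Abcg1, which export cholesterol, and Nr1h3, the LXRα gene, were below 0.5 FPKM in every group. Mylip, an LXR target, was at 2.63 and 3.70 FPKM in Scr and 1.73 and 2.94 in Nfat5-KO, higher at 600 in both. Tmem97, a sterol-responsive membrane protein, was at 37.9 and 30.1 FPKM in Scr and 40.8 and 21.8 in Nfat5-KO, lower at 600 in both. Of 18 genes of other fatty acid and triglyceride synthesis 17 could be compared, with a median of -0.29 and 13 lower, where 52.2% of all genes were. At least 1.5-fold lower were 2, Acsl1 (-0.82) and the desaturase gene Fads2 (-0.61), beside 9.44% of all genes. In the same list 1 gene was at least 1.5-fold higher, Acacb (1.26), the mitochondrial counterpart of Acaca, beside 9.84% of all genes. Me1, malic enzyme, was at 27.1 and 57.2 FPKM in Scr and 32.5 and 46.7 in Nfat5-KO, and Dgat2, of triglyceride synthesis, at 12.6 and 7.09 in Scr and 10.2 and 6.53 in Nfat5-KO. Me1 was thus higher and Dgat2 lower at 600 mosmol/kg in both genotypes.

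**Figure D4:**
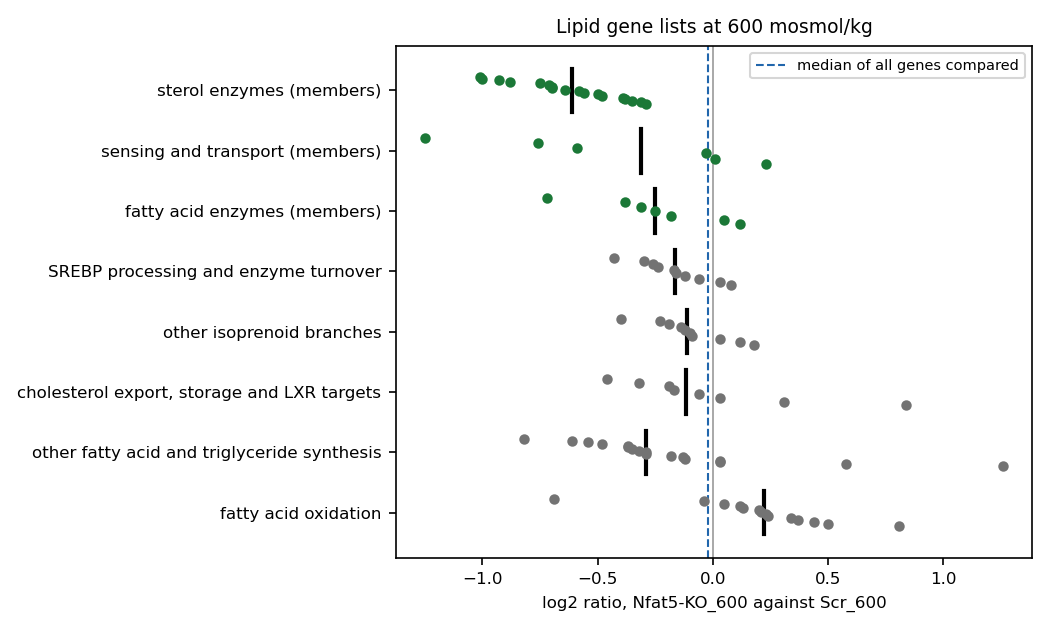
Log2 ratio of Nfat5-KO_600 to Scr_600, 1 point per gene, for the 3 groups of members (green) and 5 lists of neighbouring pathways (grey). Black bars are list medians and the dashed line is the median of all genes, -0.02. Sterol enzymes lie entirely left of 0, and the median of fatty acid oxidation, 0.22, lies to the right.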

How the data were processed

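Poly(A) RNA of mpkCCD cells was sequenced as paired ends. The authors aligned reads to GRCm38/mm10 with HISAT2, counted them per gene with HTSeq and deposited FPKM as 1 value per group (versions, strand setting and how the 12 libraries were combined are not given in the sources used here). Library depth is not in the table, so its effect on precision could not be given. Of 54839 rows, 2436 without a name or value and 311 exact duplicates were set aside, as were 37 symbols with several differing rows, leaving 52015 genes, 13414 of them at 0.5 FPKM or more in some group. Log2 ratios used FPKM + 0.1 and genes at 0.5 FPKM or more in at least 1 of the groups compared. All 31 members are reported, and of each further list the 2 genes expressed in all groups with the largest tonicity ratio, plus overlapping genes and copies; other genes are named after their values were seen. The members and lists were chosen with earlier results of these data known. No test was possible with 1 value per group. Alternatives were TPM, median-of-ratios scaling, a pseudocount of 1 or of 0.01, omission of the filter and a filter on the mean (1 FPKM). Gene positions were taken from GENCODE M21 and promoters from RefSeq (GRCm38.p6). Copies were found with blastn 2.17.0 at 90% identity over 150 bases or more. Python 3.11.15, numpy 2.4.6, pandas 2.3.3 and matplotlib 3.10.9 were used, and the steps were tested on simulated data.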

Additional observations from a re-analysis of the deposited data

Results flagged for a closer look

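For 7 of the 31 members the response to 600 mosmol/kg had opposite signs in the 2 genotypes and lay at least 1.5-fold apart. It was higher in Scr and lower in Nfat5-KO in each. The share of all genes that met this rule was not computed, so the count has no background beside it. Whatever the signs, 8.75% of all genes lay at least 1.5-fold apart in this direction. On the log2 scale the response in Nfat5-KO minus that in Scr was -1.03 for Hsd17b7, -0.94 for Mvk, -0.71 for Pmvk, -0.67 for Cyp51, -0.66 for Acaca, -0.65 for Lss and -0.64 for Sqle. For Cyp51 and Sqle the response in Scr was within 0.10 of 0, and for Lss the lower value in Nfat5-KO became 0.10 in TPM. In TPM 4 of the 7 differences fell short of 1.5-fold, at -0.56 for Cyp51, -0.56 for Acaca, -0.54 for Lss and -0.53 for Sqle, while Hsd17b7 (-0.93), Mvk (-0.84) and Pmvk (-0.60) were past it. With 1 value per group the difference was not tested.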

How the results depend on the processing

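Of 868 log2 values of single members under the alternatives, 19 changed sign, 14 of these in TPM, and 8 of the 19 round to 0 before or after the change. In TPM the sterol median became 0.30 in Scr_600 against Scr_300, -0.08 in Nfat5-KO_600 against Nfat5-KO_300, -0.48 in Nfat5-KO_600 against Scr_600 and -0.37 for the difference of responses, and the fatty acid median 0.52, 0.24, -0.12 and -0.29. Members at least 1.5-fold changed in TPM were 4 higher for the Scr response, 2 higher and 2 lower for the Nfat5-KO response, 8 lower in Nfat5-KO_600 against Scr_600 and 5 lower for the difference of responses. With a pseudocount of 1, or with median-of-ratios scaling, 0 members were at least 1.5-fold higher in the Nfat5-KO response. Over members with no exon shared with another gene, chosen after seeing the data, the fatty acid difference was -0.53. Signs changed in TPM for Idi1 (0.10), Nsdhl (0.13), Srebf2 (0.07) and Stard4 (to just above 0) in the Scr response, for Mvd (0.24), Fdft1 (0.01), Lss (0.10), Ebp (0.17), Sc5d (0.04), Srebf1 (0.12), Acly (0.08) and Scd1 (0.24) in the Nfat5-KO response, for Scap (0.10) in Nfat5-KO_600 against Scr_600 and for Elovl6 (0.08) in the difference. With median-of-ratios scaling they changed for Srebf1 (-0.04) and Fasn (to just below 0) in Nfat5-KO_600 against Scr_600, for Nsdhl (0.01) in the Scr response and for Tm7sf2 (-0.04) in the difference, and with a pseudocount of 1 for Tm7sf2 in the difference (to just below 0). TPM raises both groups at 600 mosmol/kg by construction, since their FPKM sums are lower. No paired analysis was possible because the table holds 1 value per group. For the same reason no replicate could be left out.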

Other observations

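Most genes of fatty acid oxidation had higher values in Nfat5-KO_600 than in Scr_600. Of 15 listed genes 14 could be compared. At 600 mosmol/kg 12 had higher and 2 lower values in Nfat5-KO, where 47.8% of all genes had higher ones. Their median log2 ratio was 0.22 where all genes had -0.02, and 0.17 with median-of-ratios scaling and 0.35 in TPM. At least 1.5-fold higher was 1 gene, Etfdh (0.81), and lower 1, Eci1 (-0.69), where 9.84% and 9.44% of all genes were. At 300 mosmol/kg 8 were higher and 6 lower, where 49.8% of all genes were higher, with a median of 0.01 for the list. Cpt1a, which carries long acyl chains into mitochondria, was at 19.7 and 21.6 FPKM in Scr_300 and Scr_600 and at 13.9 and 25.5 in Nfat5-KO_300 and Nfat5-KO_600. Slc25a20, the carnitine carrier, was at 3.15 and 3.86 FPKM in Scr and at 3.16 and 5.51 in Nfat5-KO. Nfat5-KO_600 was the highest group for both. Eci1, an isomerase of unsaturated acyl chains, was the exception with the lowest ratio, at 33.0 and 36.7 FPKM in Scr and 19.9 and 22.7 in Nfat5-KO. Decr1 is listed at 0 in every group. Soat1, which esterifies cholesterol for storage, was at 2.02 and 1.80 FPKM in Scr and 2.55 and 3.29 in Nfat5-KO, the 1 gene of its list past 1.5-fold higher in Nfat5-KO_600 against Scr_600 (0.84), of 8 compared, where 9.84% of all genes were. Cpt1a and Slc25a20 are named because they had the largest tonicity ratios of their list, so a high or low level at 600 mosmol/kg follows from the choice, and the other genes were named after their values were seen.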
